A study of Mus musculus with 10 samples.

Results

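Serglycin, encoded by *Srgn*, is the core protein of the proteoglycan that fills the secretory granules of mast cells, basophils and eosinophils, and the enzymes encoded by *Ext1*, *Ext2*, *Ndst1*, *Ndst2*, *Glce*, *Hs2st1*, *Hs6st1*, *Chst11* and *Chst12* build and sulfate glycosaminoglycan chains. These 10 genes were looked up on Affymetrix GeneChip Mouse Gene 1.0 ST arrays through probe sets that the platform annotation assigns to 1 gene symbol. Of the 10 genes, 9 had such a probe set (1 each), out of 19937 named genes in all, and *Ndst1* is not analysed here. RNA came from bone marrow (BM) cells of C57BL6/N wild type mice (B6) or of mice lacking *Slpi* (*Slpi*-/-), cultured into 3 cell types, with 1 array per condition and 10 arrays in all. The conditions, each as a *Slpi*-/- array and a B6 array, were unstimulated mast cells, BM-derived basophils (BMBs) exposed first to anti-TNP-IgE (1 h) and then to the antigen TNP-OVA (12 h), unstimulated BMBs, BM-derived eosinophils (BMEos) given lipopolysaccharide (LPS) for 3 h, and unstimulated BMEos. BMBs and mast cells were both grown in IL-3. BMBs were then isolated as c-kit- DX5+ cells, whereas mast cells were kept in culture for weeks. BMEos were grown in stem cell factor and Flt3 ligand and then in IL-5, so growth factors and time in culture differ with the cell type. No source used here says how many cultures or mice stand behind an array. The p-values therefore measure the spread between these arrays alone, where arrays of another genotype or stimulus stand in for replicates.

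A glycosaminoglycan chain starts on a serine of the core protein with a short linkage sugar chain, and is then extended either as heparan sulfate, of which heparin is the most heavily sulfated form, or as chondroitin sulfate. In heparan sulfate, the exostosins add the sugars, an N-deacetylase/N-sulfotransferase opens the way for later steps, an epimerase turns glucuronic acid into iduronic acid, and O-sulfotransferases complete the pattern. Connective tissue type mast cells are known for heparin, and basophils, eosinophils and mucosal type mast cells for chondroitin sulfate, and in each case the negative charge holds proteases, histamine and cationic proteins in the granule.

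The 250 bases before the transcription start are shown for *Srgn*, *Ndst2* and *Chst12*, because these genes showed the contrasting patterns described here: no call in any comparison, the largest excess in mast cells among the 9 genes, and lower signals in mast cells. The sequences are from RefSeq, build GRCm38.p6, and are written 5′ to 3′ on the strand of the gene: *Srgn* on the minus strand at chr10:62527446-62527695, *Ndst2* on the minus strand at chr14:20734563-20734812, and *Chst12* on the plus strand at chr5:140505359-140505608. Capitals mark a CCGGAAG motif in the *Srgn* window and a CATGTG motif (read on the opposite strand) in the *Chst12* window.
Srgn: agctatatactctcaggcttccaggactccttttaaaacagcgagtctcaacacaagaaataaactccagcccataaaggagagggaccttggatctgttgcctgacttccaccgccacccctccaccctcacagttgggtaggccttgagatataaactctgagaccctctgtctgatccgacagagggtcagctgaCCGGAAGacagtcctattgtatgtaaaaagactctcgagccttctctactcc
Ndst2: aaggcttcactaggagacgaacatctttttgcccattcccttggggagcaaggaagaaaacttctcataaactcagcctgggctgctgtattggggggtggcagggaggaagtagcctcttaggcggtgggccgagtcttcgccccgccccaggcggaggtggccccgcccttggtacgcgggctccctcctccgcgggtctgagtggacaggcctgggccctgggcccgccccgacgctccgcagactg
Chst12: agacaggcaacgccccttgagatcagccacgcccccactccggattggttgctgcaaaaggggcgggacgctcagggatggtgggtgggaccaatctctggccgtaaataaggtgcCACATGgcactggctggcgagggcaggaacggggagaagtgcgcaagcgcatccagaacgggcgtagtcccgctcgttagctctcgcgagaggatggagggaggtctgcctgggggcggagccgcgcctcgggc
The motifs searched, on both strands, were GATAA (GATA factors), CATGTG (MITF), TGANTCA (AP-1) and CCGGAAG (ETS factors), and they were chosen after the signals had been seen. Among 32851 RefSeq windows of the same length, GATAA occurred in 22.6%, CATGTG in 12.3%, TGANTCA in 6.75% and CCGGAAG in 6.91%. The *Srgn* match lies at bases -52 to -46 from the start, and the *Chst12* match at bases -134 to -129. The *Ndst2* window held none of these letters. Another RefSeq start of *Srgn* (chr10:62507758-62508007) also held none of them. Of the 8 genes with a RefSeq window, the other match was GATAA in *Ext2*, at bases -117 to -113. The *Srgn* windows held 5 and 3 CpG dinucleotides, beside a median of 6 over all windows, whereas *Ndst2* held 15, *Chst12* 20 and *Hs6st1* 37. A match describes the sequence and is not evidence of binding.

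The deposited values are log2 signals, with array medians of 5.85 to 5.94. Each array's background was the level that 95% of 1027 olfactory receptor genes did not exceed, 5.56 to 5.78. *Slpi* matched the genotype labels in BMBs and BMEos, with 6.55 in *Slpi*-/- and 11.42 in B6 BMBs, and 6.41 in *Slpi*-/- and 8.08 in B6 BMEos. In mast cells it had 6.47 in *Slpi*-/- and 6.53 in B6 cells, so that pair has no such check. Markers of the labelled cell types were present: 4 or 5 of 5 mast cell markers were above background on the mast cell arrays, 5 of 5 basophil markers on the BMB arrays and 5 of 5 eosinophil markers on the BMEos arrays. Mast cell markers were also above background on each BMB array (4 of 5), and basophil markers on each mast cell array (3 of 5). These counts alone therefore do not separate mast cells from BMBs. Mast cell markers summed to 14.615 and 14.721 (log2) in B6 and *Slpi*-/- mast cells, and to 13.023 to 13.387 in BMBs. Some arrays also carried markers of other cell types. Of 7 neutrophil markers, 5 were above background on the unstimulated B6 BMB array, against 1 or 2 on the other BMB arrays, and 5 or 6 on the BMEos arrays. All 4 measured megakaryocyte markers were above background on the 4 BMB arrays. *Xist* had 9.66 and 9.72 on the *Slpi*-/- and B6 LPS arrays of BMEos, against 4.90 and 4.15 on the unstimulated *Slpi*-/- and B6 BMEos arrays, and *Eif2s3y*, on the Y chromosome, had 3.54 and 3.22 on the LPS arrays, against 8.45 and 8.20 on the unstimulated arrays. The LPS effect and the difference that these sex-linked genes show cannot be told apart.

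*Srgn* was high in every cell type and spanned 0.28 log2 units over the 10 arrays. Its log2 signals were 13.01 in *Slpi*-/- and 12.95 in B6 mast cells, 13.07 and 13.11 in *Slpi*-/- and B6 BMBs given IgE and antigen, 12.84 and 12.93 in *Slpi*-/- and B6 BMBs without stimulation, 12.84 and 12.96 in *Slpi*-/- and B6 BMEos given LPS, and 13.01 and 13.00 in *Slpi*-/- and B6 BMEos without LPS. Both BMB arrays with IgE and antigen lay above the other 8. Without stimulation, mast cells and BMEos overlapped, and BMBs lay below both, on arrays whose highest signal was 13.69 to 14.14. By limma, the log2 difference was 0.09 for mast cells minus BMBs (95% interval -0.14 to 0.33, adjusted p = 0.510), -0.02 for mast cells minus BMEos (-0.26 to 0.21, adjusted p = 0.858) and -0.12 for BMBs minus BMEos (-0.35 to 0.11, adjusted p = 0.395). None of these intervals reached beyond 0.35 on the log2 scale.

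**Figure D1:**
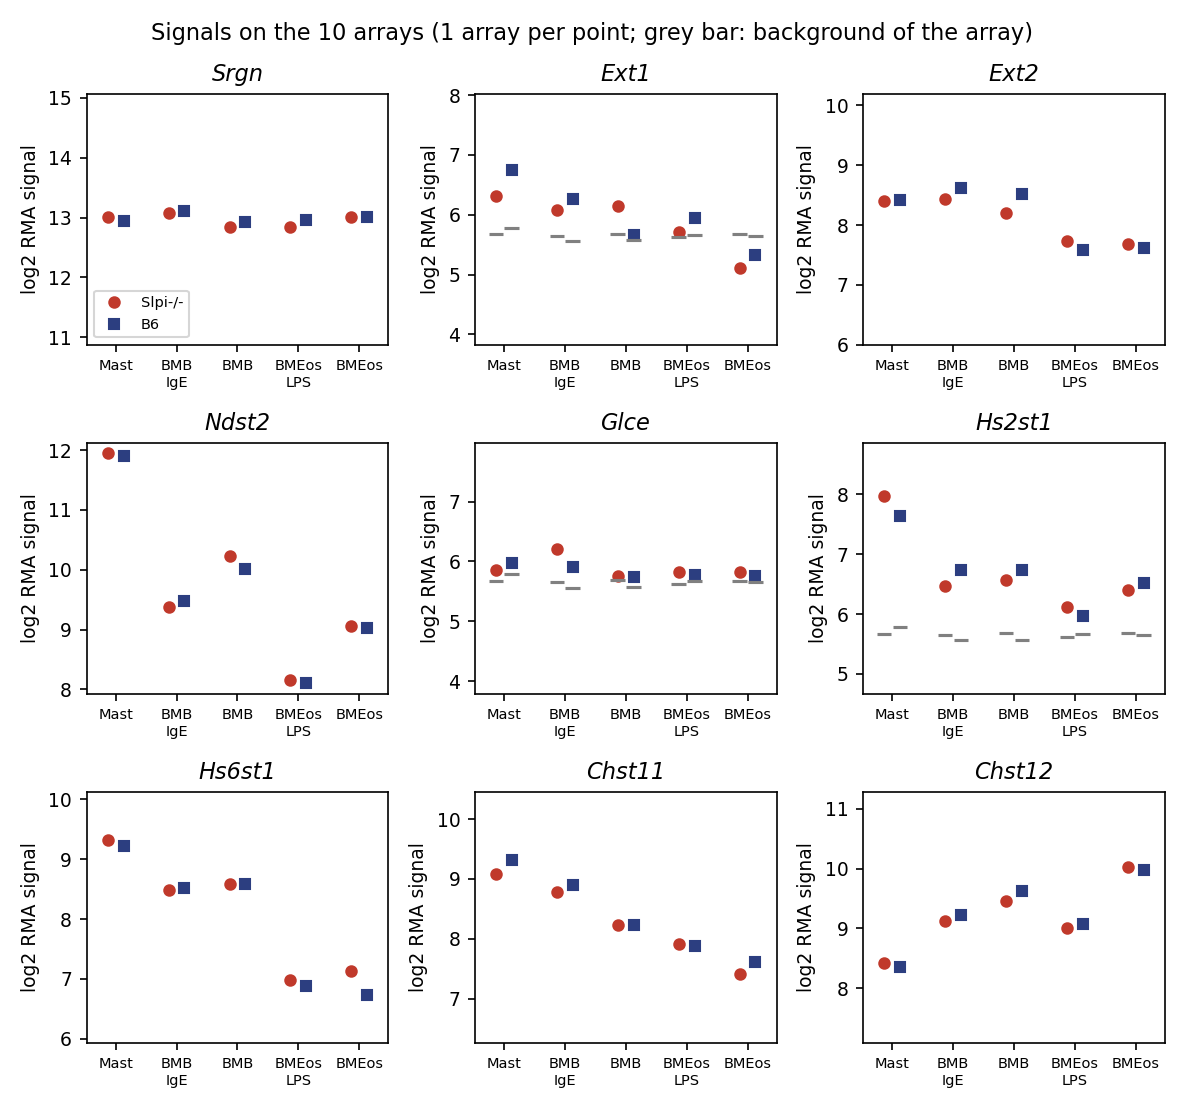
Log2 RMA signals (y axis) of the 9 genes on the 10 arrays, by cell type and stimulus (x axis), with *Slpi*-/- arrays as red circles and B6 arrays as blue squares. Every panel spans the same number of log2 units, and grey bars mark each array's background where it falls within the panel. *Srgn* stayed within 12.84 to 13.11, whereas *Ndst2* ran from 8.10 in BMEos given LPS to 11.95 in mast cells.

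Among the genes that modify heparan sulfate chains, *Ndst2*, *Hs6st1* and *Hs2st1* were higher in mast cells than in BMBs and BMEos, and *Glce* passed no comparison. *Ndst2* encodes the N-deacetylase/N-sulfotransferase that mouse mast cells need to make heparin. Its log2 signals were 11.95 and 11.90 in *Slpi*-/- and B6 mast cells, 10.23 and 10.01 in *Slpi*-/- and B6 BMBs, and 9.06 and 9.02 in *Slpi*-/- and B6 BMEos, with no overlap between the 3 cell types. *Ndst2* was 3.50-fold higher in mast cells than in BMBs (log2 difference 1.81, 95% interval 1.57 to 2.04, limma adjusted p = 2.06e-05). It was 7.39-fold higher in mast cells than in BMEos (2.89, 2.65 to 3.12, adjusted p = 1.41e-06), which ranked 402nd in size among 12998 genes tested. BMBs in turn exceeded BMEos 2.11-fold (1.08, 0.84 to 1.32, adjusted p = 0.000219).

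*Hs6st1* and *Hs2st1* encode the sulfotransferases that act on the 6-O position of glucosamine and the 2-O position of iduronic acid. *Hs6st1* had log2 signals of 9.33 and 9.22 in *Slpi*-/- and B6 mast cells, 8.58 and 8.58 in *Slpi*-/- and B6 BMBs, and 7.14 and 6.74 in *Slpi*-/- and B6 BMEos. The 3 cell types did not overlap, and the wider step lay between BMBs and BMEos (1.65, 3.13-fold, limma adjusted p = 7.88e-05) rather than between mast cells and BMBs (0.69, 1.61-fold, adjusted p = 0.00469), although the 2 steps were not tested against each other. Mast cells exceeded BMEos 5.05-fold in *Hs6st1* (2.34, 95% interval 2.05 to 2.63, adjusted p = 8.05e-06). *Hs2st1* had 7.97 and 7.64 in *Slpi*-/- and B6 mast cells, 6.57 and 6.73 in *Slpi*-/- and B6 BMBs, and 6.40 and 6.52 in *Slpi*-/- and B6 BMEos. Here mast cells alone stood apart, 2.23-fold above BMBs (1.16, 0.82 to 1.49, adjusted p = 0.000814) and 2.55-fold above BMEos (1.35, 1.01 to 1.69, adjusted p = 0.000231), and BMBs minus BMEos was 0.19 (-0.14 to 0.53, adjusted p = 0.336).

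The polymerase genes *Ext1* and *Ext2* were higher in both mast cells and BMBs than in BMEos, and did not pass between mast cells and BMBs. *Ext1* and *Ext2* encode the partners of the enzyme complex that elongates heparan sulfate. *Ext2* had log2 signals of 8.40 and 8.42 in *Slpi*-/- and B6 mast cells, 8.21 and 8.52 in *Slpi*-/- and B6 BMBs, and 7.69 and 7.62 in *Slpi*-/- and B6 BMEos. Mast cells and BMBs overlapped (0.05, 95% interval -0.24 to 0.33, limma adjusted p = 0.802), and both lay above BMEos, mast cells 1.69-fold (0.75, adjusted p = 0.00182) and BMBs 1.63-fold (0.71, adjusted p = 0.00355). *Ext1* had 6.32 and 6.75 in *Slpi*-/- and B6 mast cells, 6.15 and 5.67 in *Slpi*-/- and B6 BMBs, and 5.11 and 5.33 in *Slpi*-/- and B6 BMEos, where both values were below background. Against BMEos its signal was therefore at least 1.83-fold higher in mast cells and at least 1.19-fold higher in BMBs, both set against the background level. The limma differences of the measured signals were 1.31 (adjusted p = 0.00169) and 0.69 (adjusted p = 0.0357), and the bounds themselves were not tested. *Ext1* in mast cells minus BMBs was 0.62 (0.13 to 1.11) and missed the threshold (adjusted p = 0.0546); the value was 0.22 (adjusted p = 0.300) without the B6 BMB array and 1.03 (adjusted p = 0.00165) without the *Slpi*-/- BMB array. *Glce*, which encodes the glucuronyl C5-epimerase, had 5.74 to 5.98 on the 6 unstimulated arrays, close to background on all of them, and passed no comparison of cell types.

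The pair of chondroitin 4-O-sulfotransferase genes ran in opposite directions. *Chst11* and *Chst12* encode enzymes that sulfate the same position of N-acetylgalactosamine. *Chst11* had log2 signals of 9.08 and 9.32 in *Slpi*-/- and B6 mast cells, 8.23 and 8.24 in *Slpi*-/- and B6 BMBs, and 7.41 and 7.61 in *Slpi*-/- and B6 BMEos. *Chst12* had 8.42 and 8.36 in *Slpi*-/- and B6 mast cells, 9.45 and 9.62 in *Slpi*-/- and B6 BMBs, and 10.02 and 9.98 in *Slpi*-/- and B6 BMEos. For both genes the cell types did not overlap, with mast cells at the top for *Chst11* and at the bottom for *Chst12*. *Chst11* was 1.95-fold higher in mast cells than in BMBs (0.96, 95% interval 0.71 to 1.21, limma adjusted p = 0.000478) and 3.21-fold higher than in BMEos (1.68, 1.43 to 1.93, adjusted p = 1.79e-05). *Chst12* was 2.22-fold lower in mast cells than in BMBs (-1.15, -1.40 to -0.90, adjusted p = 0.000205) and 3.06-fold lower than in BMEos (-1.61, -1.86 to -1.36, adjusted p = 2.27e-05). Between BMBs and BMEos the differences were 0.72 for *Chst11* (adjusted p = 0.00172) and -0.46 for *Chst12* (adjusted p = 0.0125).

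Against BMBs, mast cells were thus higher in 4 of the 9 genes and lower in 1, while 17.9% of the 12998 genes tested were higher and 18.8% lower. Against BMEos, mast cells were higher in 6 and lower in 1, beside 26.8% higher and 24.3% lower over all genes. BMBs against BMEos were higher in 5 and lower in 1, beside 21.2% higher and 18.6% lower. The median log2 difference of the 9 genes was 0.62 for mast cells minus BMBs, 1.31 for mast cells minus BMEos and 0.69 for BMBs minus BMEos, against 0.01, 0.04 and 0.03 over all genes tested. In bulk RNA, fewer cells of a type and less RNA per cell cannot be told apart. Macrophage markers were above background in 1 or 2 of 5 on the mast cell arrays and in 4 of 5 on the unstimulated BMB and BMEos arrays. Their summed levels (log2) were 8.11 to 8.17 in mast cells, 11.32 to 11.76 in BMBs and 12.38 to 12.41 in BMEos. *Adgre1* alone had 10.82 and 11.33 in *Slpi*-/- and B6 BMBs, and 12.09 on each unstimulated BMEos array. The sums therefore cannot tell macrophages from the labelled cells. All 4 measured megakaryocyte markers were above background in BMBs, 2 of 4 in mast cells (*Ppbp* and *Pf4* were at background) and 3 or 4 in BMEos. Their summed levels (log2) were 11.55 to 11.62 in mast cells, 12.33 to 12.50 in BMBs and 10.46 to 10.61 in BMEos. *Itga2b* alone had 11.55 and 11.47 in *Slpi*-/- and B6 mast cells, so 1 gene carries most of the mast cell sum. The part of these markers in the differences was not tested. Without the B6 BMB array that carried neutrophil markers, the 5 genes that passed between mast cells and BMBs passed again, with *Ndst2* at 1.72 and *Chst12* at -1.04. Without the *Slpi*-/- BMB array or either BMEos array, *Ext1* and *Chst12* no longer passed in BMBs minus BMEos.

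**Figure D2:**
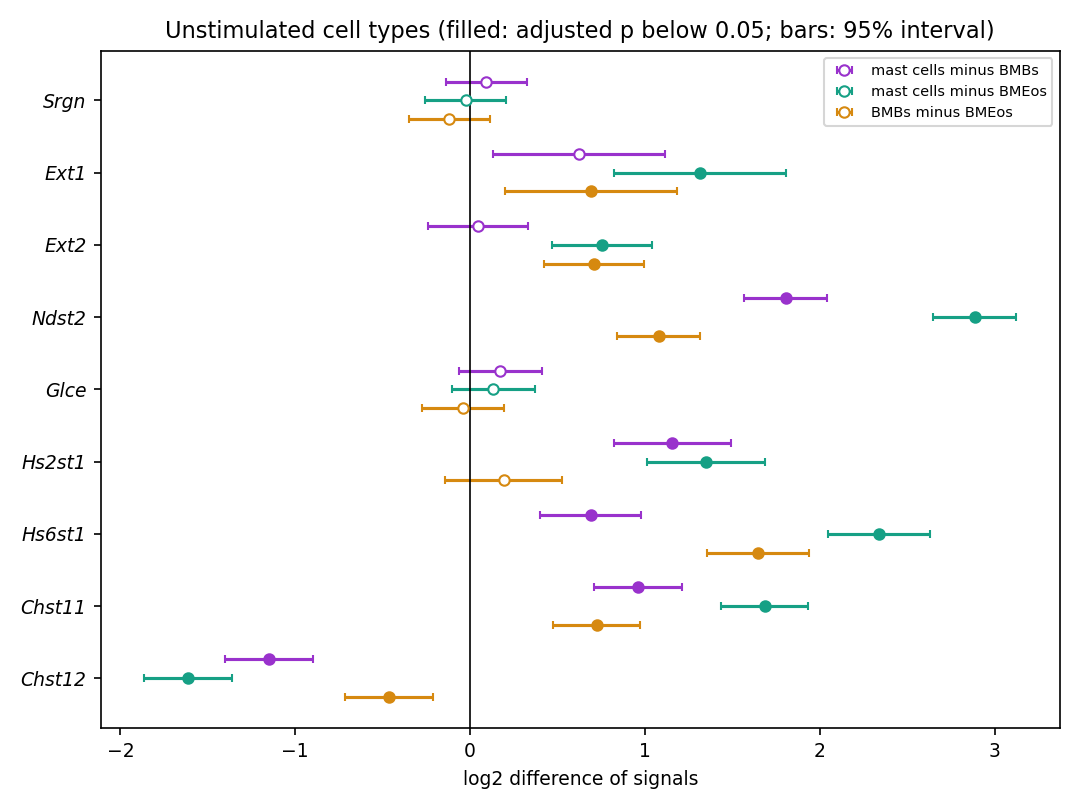
Log2 differences between unstimulated cell types (x axis) for the 9 genes (y axis), with limma's 95% intervals as bars and filled symbols where the adjusted p was below 0.05. Purple marks mast cells minus BMBs, green mast cells minus BMEos and orange BMBs minus BMEos; *Ndst2* reached 2.89 and *Chst12* -1.61 in mast cells minus BMEos, while *Srgn* lay at 0 within its intervals.

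Beyond the members, *Ndst3*, *Hs6st2* and *Hs3st1* were higher in mast cells than in both other cell types. In the list of heparan sulfate enzymes, which holds the 6 heparan sulfate genes above, 18 genes were tested and 7 were higher and 2 lower in mast cells than in BMBs, with a median difference of 0.27. Against BMEos, 11 were higher and 0 lower in mast cells, with a median of 0.72 and 11 at an unadjusted p below the threshold. Without the 6 members, 4 of 12 were higher and 2 lower than in BMBs (17.9% and 18.8% over all genes), and 6 of 12 were higher and 0 lower than in BMEos (26.8% and 24.3%). *Ndst3*, a further N-deacetylase/N-sulfotransferase gene, had log2 signals of 8.47 and 8.53 in *Slpi*-/- and B6 mast cells and was at background on the other 8 arrays, at 5.34 or less. It was at least 7.34-fold higher in mast cells than in BMBs and at least 7.15-fold higher than in BMEos. *Ndst3* entered the test only through the mast cell arrays, so its p-values are not given, although it is in the counts above. *Hs6st2*, another 6-O-sulfotransferase gene, had 9.86 and 9.83 in *Slpi*-/- and B6 mast cells, and 6.46 and 6.30 in *Slpi*-/- and B6 BMBs. Its values were at background in BMEos, so mast cells were at least 18.2-fold higher than BMEos (limma adjusted p = 3.58e-07). *Hs3st1*, which encodes the 3-O-sulfotransferase of the antithrombin-binding site, had 9.91 and 9.69 in *Slpi*-/- and B6 mast cells, 8.08 and 7.43 in *Slpi*-/- and B6 BMBs, and 5.69 and 5.35 in *Slpi*-/- and B6 BMEos. It was 2.05 higher in mast cells than in BMBs (adjusted p = 3.40e-05). It was also higher than in BMEos (adjusted p = 7.92e-07), where the B6 value was below background and the *Slpi*-/- value stood beside a background of 5.68, so that no size is given.

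Chondroitin sulfate genes went both ways. Of the 14 tested, which include *Chst11* and *Chst12*, 3 were higher and 8 lower in mast cells than in BMBs (median -0.41, beside 17.9% higher and 18.8% lower over all genes). Against BMEos, 6 were higher and 5 lower in mast cells (median 0.18, beside 26.8% and 24.3%). *Chsy1*, which encodes a chondroitin polymerase, had log2 signals of 11.80 and 11.73 in *Slpi*-/- and B6 mast cells, 8.091 and 8.003 in *Slpi*-/- and B6 BMBs, and 9.66 and 9.26 in *Slpi*-/- and B6 BMEos. It was thus 3.72 above BMBs (limma adjusted p = 1.86e-06) and 2.30 above BMEos (adjusted p = 7.02e-06) in mast cells, and BMBs lay below BMEos (-1.42, adjusted p = 0.000129). *Chst13*, the gene of another chondroitin 4-O-sulfotransferase, followed the order of *Chst12* with wider steps, at 6.69 and 7.14 in *Slpi*-/- and B6 mast cells, 9.21 and 9.26 in *Slpi*-/- and B6 BMBs, and 10.43 and 10.45 in *Slpi*-/- and B6 BMEos. Its differences in mast cells were -2.32 against BMBs (adjusted p = 2.19e-05) and -3.53 against BMEos (adjusted p = 1.91e-06). *Ust*, which encodes a uronyl 2-O-sulfotransferase, was above background in unstimulated BMBs alone among the 3 cell types, at 6.49 and 6.52 in *Slpi*-/- and B6 BMBs. That is at least 1.71-fold above mast cells and at least 1.79-fold above BMEos. *Ust* entered the test only through these BMB arrays, so its p-values are not given, although it is in the counts above.

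Among the genes that supply sulfate and sugar donors, *Papss2* and *Slc35d1* were higher in mast cells than in both other cell types. *Papss2* encodes an enzyme that makes the sulfate donor PAPS, which all of these sulfotransferases use, and it had log2 signals of 11.56 and 11.50 in *Slpi*-/- and B6 mast cells, 8.56 and 8.80 in *Slpi*-/- and B6 BMBs, and 7.08 and 6.90 in *Slpi*-/- and B6 BMEos. The differences of mast cells were 2.85 against BMBs (limma adjusted p = 7.80e-06) and 4.54 against BMEos (adjusted p = 5.97e-07). *Slc35d1*, a transporter of nucleotide sugars, was 1.01 above BMBs (adjusted p = 0.000243) and 1.64 above BMEos (adjusted p = 1.32e-05) in mast cells. *Papss1*, the other gene for PAPS synthesis, had 6.77 and 6.87 in *Slpi*-/- and B6 mast cells and did not pass against BMBs (0.34, adjusted p = 0.0546) or BMEos (-0.15, adjusted p = 0.317). Over the 11 donor genes tested, 2 were higher and 4 lower in mast cells than in either BMBs or BMEos, with medians of -0.12 and -0.15. Over all genes, 17.9% were higher and 18.8% lower than in BMBs, and 26.8% higher and 24.3% lower than in BMEos.

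The first sugars of every chain are added by the linkage enzymes, and most of their genes passed between mast cells and the other cell types, in both directions. Of 5 genes tested, 2 were higher and 2 lower in mast cells than in BMBs, at 0.46 for the xylosyltransferase gene *Xylt2* (limma adjusted p = 0.0113), 0.45 for the xylose kinase gene *Fam20b* (adjusted p = 0.0137), -0.44 for *Xylt1* (adjusted p = 0.0127) and -0.44 for *B3gat3* (adjusted p = 0.0122). Over all genes, 17.9% were higher and 18.8% lower than in BMBs. Against BMEos, 3 were higher and 1 lower in mast cells (26.8% and 24.3% over all genes), with *Fam20b* furthest at 0.92 (adjusted p = 0.00032). Among the genes of other core proteins, 15 tested, 1 was higher and 5 were lower in mast cells than in BMBs, and 1 was higher and 2 were lower than in BMEos. The higher gene was in both cases *Vcan*, which encodes the chondroitin sulfate proteoglycan versican, at 7.58 and 7.64 in *Slpi*-/- and B6 mast cells and 6.09 and 6.05 in *Slpi*-/- and B6 BMBs (1.54, adjusted p = 3.33e-05), and at background in BMEos (mast cells at least 3.85-fold higher, adjusted p = 3.10e-06). *Gpc4*, a glypican gene, was above background in BMBs at 7.74 and 7.79 in *Slpi*-/- and B6 cells and was at background in mast cells and BMEos, and *Cd44*, the gene of a hyaluronan receptor that can carry chondroitin sulfate, was lower in mast cells than in BMEos (-2.52, adjusted p = 3.56e-06).

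Lysosomal enzymes take the same chains apart. Of 12 tested, 1 was higher and 7 were lower in mast cells than in BMBs, and 4 were higher and 2 lower in mast cells than in BMEos. Over all genes, 17.9% were higher and 18.8% lower than in BMBs, and 26.8% higher and 24.3% lower than in BMEos. *Arsb*, which encodes the sulfatase that removes the 4-O-sulfate added by the enzymes of *Chst11*, *Chst12* and *Chst13*, was at background in mast cells, at 5.33 and 5.36 in *Slpi*-/- and B6 cells, against 7.33 and 7.65 in *Slpi*-/- and B6 BMBs and 9.68 and 9.81 in *Slpi*-/- and B6 BMEos. Its signal was at least 3.39-fold lower in mast cells than in BMBs (limma adjusted p = 1.38e-05) and at least 16.2-fold lower than in BMEos (adjusted p = 4.13e-07). *Galns*, the gene of the N-acetylgalactosamine 6-sulfatase, was also lower in mast cells, at -1.62 against BMBs (adjusted p = 6.69e-05) and -1.64 against BMEos (adjusted p = 3.48e-05). The sulfatase genes *Ids* and *Sgsh* were higher in mast cells than in BMEos, by 2.26 (limma adjusted p = 3.00e-06) and 2.72 (adjusted p = 2.93e-06). *Ids* was the 1 gene of the list that was higher in mast cells than in BMBs (0.49, adjusted p = 0.00673).

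**Figure D3:**
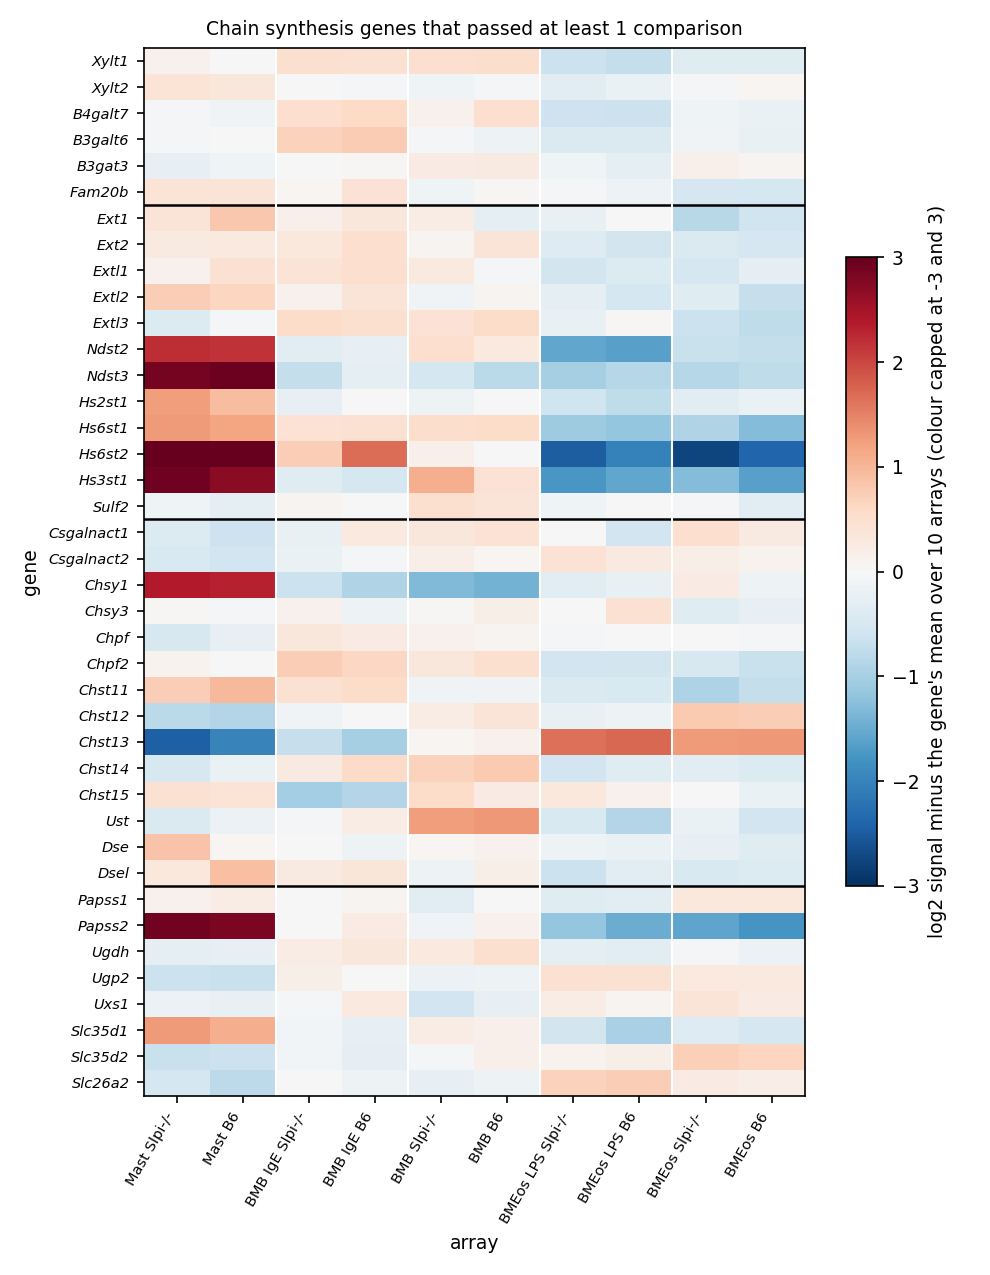
Log2 signals of the 40 linkage (6), heparan sulfate (12), chondroitin sulfate (14) and donor (8) genes that passed at least 1 comparison of cell types or stimuli, each minus its own mean over the 10 arrays, with genes as rows and arrays as columns. Black lines divide the lists in that order from the top, and the colour is capped at 3 log2 units; *Ndst2*, *Ndst3*, *Hs6st2*, *Hs3st1*, *Chsy1* and *Papss2* are red in both mast cell arrays, and *Chst13* is blue there.

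IgE and antigen moved 3 of the 9 genes in BMBs, and *Srgn* was not among them. *Ndst2* had log2 signals of 9.38 and 9.48 in *Slpi*-/- and B6 BMBs given IgE and antigen, against 10.23 and 10.01 in unstimulated *Slpi*-/- and B6 BMBs, a 1.61-fold fall (-0.69, 95% interval -0.95 to -0.43, limma adjusted p = 0.00734). *Chst11* had 8.78 and 8.90 in stimulated *Slpi*-/- and B6 BMBs, against 8.23 and 8.24 without stimulation, a 1.52-fold rise (0.61, 0.36 to 0.86, adjusted p = 0.00935). *Chst12* had 9.12 and 9.22 in stimulated *Slpi*-/- and B6 BMBs, against 9.45 and 9.62 without stimulation, a 1.29-fold fall (-0.37, -0.59 to -0.14, adjusted p = 0.0364). In each of the 3 genes the stimulated and unstimulated arrays did not overlap. How many of all genes did the same was not counted, so this adds nothing to the calls. With 1 gene higher and 2 lower of 9, the counts stood beside 12.2% higher and 10.6% lower among 13571 genes tested. *Srgn* in stimulated minus unstimulated BMBs was 0.21 (-0.02 to 0.43, adjusted p = 0.181), *Glce* was 0.31 (0.05 to 0.57, adjusted p = 0.0890), and *Ext1*, *Ext2*, *Hs2st1* and *Hs6st1* lay between -0.09 and 0.26.

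The IgE calls rest on 4 arrays. Leaving out the stimulated or the unstimulated array of a genotype gives the same fit here, which rests on the pair of the other genotype. The differences were then between -0.85 and -0.53 for *Ndst2* and between 0.55 and 0.66 for *Chst11*. The calls of *Chst11* and *Chst12* did not hold in these fits, and that of *Ndst2* did not hold in all of them. Megakaryocyte markers varied among these arrays, with summed levels (log2) of 12.72 and 11.40 in stimulated *Slpi*-/- and B6 BMBs and 12.33 and 12.50 in unstimulated *Slpi*-/- and B6 BMBs. Of 7 neutrophil markers, 5 were above background on the unstimulated B6 array, against 1 or 2 on the other BMB arrays. The part of either set of markers in the IgE differences was not tested.

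Chondroitin sulfate genes of BMBs went both ways with IgE and antigen. Of the 14 tested, 2 rose and 4 fell, or 1 and 3 of 12 without *Chst11* and *Chst12*, beside 12.2% higher and 10.6% lower over all genes. *Chst15*, which encodes the enzyme that makes the disulfated E unit of chondroitin sulfate known from mucosal type mast cells, had log2 signals of 9.26 and 9.39 in stimulated *Slpi*-/- and B6 BMBs, against 10.82 and 10.52 without stimulation (-1.34, limma adjusted p = 0.00152). *Ust* fell to background, at 5.17 and 5.46 in stimulated *Slpi*-/- and B6 BMBs, at least 1.86-fold below unstimulated BMBs. Its p-value is not given, because it entered the test only through the unstimulated BMB arrays. *Chst13* fell by 0.94 (adjusted p = 0.00322). *Chsy1*, which rose as *Chst11* did, had 8.78 and 8.52 in stimulated BMBs, against 8.091 and 8.003 without stimulation (0.60, adjusted p = 0.0234).

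Of 18 heparan sulfate genes, 1 rose and 2 fell with IgE and antigen, close to or below the 12.2% and 10.6% over all genes. *Hs3st1* had 6.62 and 6.47 in stimulated *Slpi*-/- and B6 BMBs, against 8.08 and 7.43 without stimulation (-1.21, limma adjusted p = 0.00488), and *Ndst2* was the other gene that fell. *Hs6st2* rose, to 7.0487 and 7.9998 in stimulated *Slpi*-/- and B6 BMBs, against 6.46 and 6.30 without stimulation (1.14, adjusted p = 0.0179). The linkage gene *B3galt6* had 6.06 and 6.11 in stimulated *Slpi*-/- and B6 BMBs and was at background on the other 8 arrays. With stimulation it was thus at least 1.37-fold higher. It entered the test only through these stimulated arrays, so its p-value is not given. Among the 12 lysosomal genes, 1 rose and 4 fell, with *Sgsh* at -1.28 (adjusted p = 0.00152) and *Arsb* at -0.80 (adjusted p = 0.00716), and *Galns* rose by 0.56 (adjusted p = 0.0117). Of the 15 core protein genes, 2 rose and 2 fell, among which *Col18a1* rose by 1.07 (adjusted p = 0.00949) and *Gpc4* fell by 0.91 (adjusted p = 0.0316).

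LPS moved 5 of the 9 genes in BMEos, on arrays that also differed in *Xist* and *Eif2s3y*. *Chst12* had log2 signals of 9.01 and 9.08 in *Slpi*-/- and B6 BMEos given LPS, against 10.02 and 9.98 without LPS, a 1.94-fold fall (-0.95, 95% interval -1.18 to -0.73, limma adjusted p = 0.000959). *Ndst2* had 8.16 and 8.10 in *Slpi*-/- and B6 BMEos given LPS, against 9.06 and 9.02 without LPS, a 1.88-fold fall (-0.91, -1.17 to -0.64, adjusted p = 0.00202). Both falls were present in each genotype. *Hs2st1* had 6.11 and 5.96 with LPS, against 6.40 and 6.52 without LPS (-0.42, adjusted p = 0.0296). *Chst11* had 7.91 and 7.88 with LPS, against 7.41 and 7.61 without LPS (0.39, adjusted p = 0.0349), and *Ext1* had 5.72 and 5.94 with LPS, against values below background without LPS, at least 1.12-fold higher (adjusted p = 0.0327). The stimulated and unstimulated arrays did not overlap in any of the 5. The share of all genes without overlap was not counted, so this adds nothing to the calls. Macrophage markers were above background in 5 of 5 with LPS, against 4 of 5 without LPS, with summed levels (log2) of 12.87 to 12.92 with LPS and 12.38 to 12.41 without LPS. *Adgre1* alone had 12.53 and 12.55 in *Slpi*-/- and B6 BMEos given LPS, so the sum cannot tell macrophages from eosinophils. The part of these markers in the LPS differences was not tested.

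With 2 genes higher and 3 lower of 9, the LPS counts stood beside 12.7% higher and 16.2% lower among 13571 genes tested. *Srgn* was -0.11 in LPS-treated minus untreated BMEos (95% interval -0.34 to 0.12, limma adjusted p = 0.428), and *Ext2*, *Glce* and *Hs6st1* were each within 0.01 of 0, with intervals that reached at most 0.26 on either side. Leaving out the LPS or the unstimulated array of a genotype gives the same fit, which rests on the pair of the other genotype. Without a B6 array, the differences were -0.28 for *Hs2st1*, 0.50 for *Chst11* and 0.61 for *Ext1*. Without a *Slpi*-/- array, they were -0.56, 0.27 and 0.61 in that order. The calls of these genes did not hold in such fits, and those of *Ndst2* and *Chst12* did. *Chst11* also missed the threshold once each array was centred on its median (0.31, adjusted p = 0.0734). *Ndst2*, *Chst11* and *Chst12* differed in the same direction with both stimuli, which were given to different cell types for different times, so the sizes are set side by side with no comparison.

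**Figure D4:**
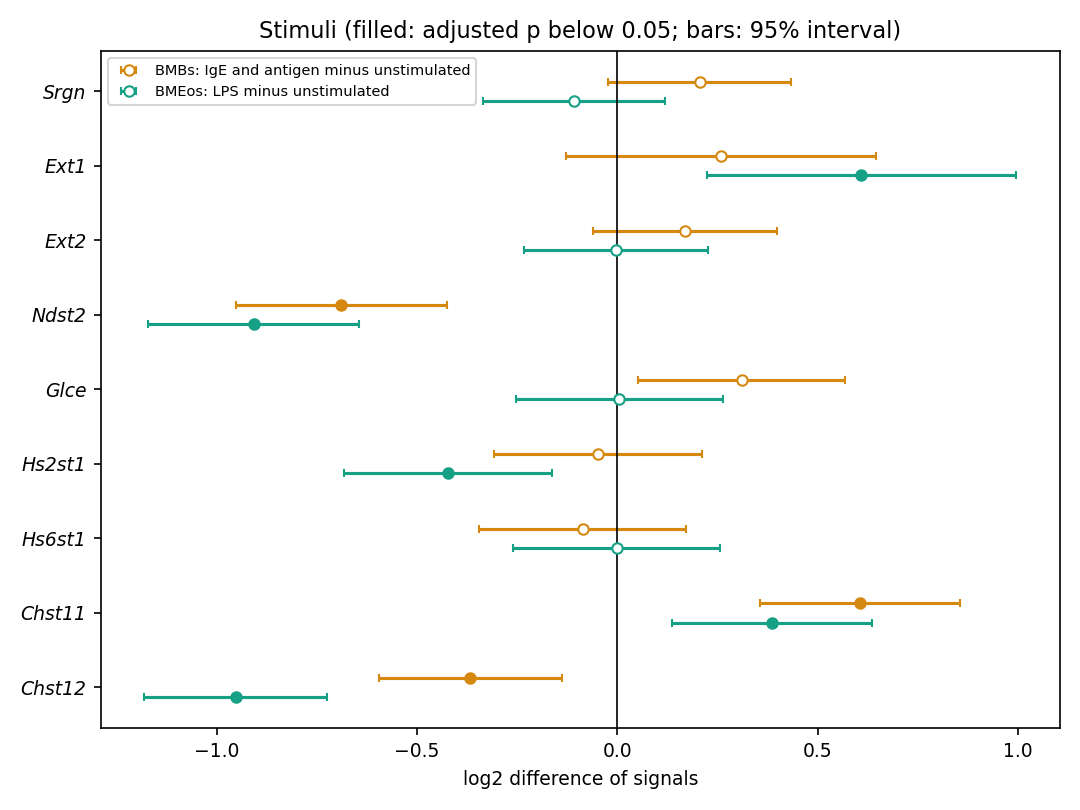
Log2 differences (x axis) of the 9 genes (y axis) for BMBs given IgE and antigen minus unstimulated BMBs (orange) and BMEos given LPS minus unstimulated BMEos (green), with limma's 95% intervals as bars and filled symbols where the adjusted p was below 0.05. *Ndst2* lies at -0.69 and -0.91, *Chst12* at -0.37 and -0.95, and *Chst11* at 0.61 and 0.39.

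In the wider lists, the counts with LPS stand beside the same 12.7% higher and 16.2% lower over all genes. Of 14 chondroitin sulfate genes, 3 rose and 2 fell. *Csgalnact1*, which encodes an enzyme that starts chondroitin chains, had 5.88 and 5.29 in *Slpi*-/- and B6 BMEos given LPS, against 6.36 and 6.14 without LPS (-0.67 with 1 of the 2 LPS values above background, limma adjusted p = 0.0163), and *Chst13* had 10.79 and 10.87 with LPS, against 10.43 and 10.45 without LPS (0.39, adjusted p = 0.0463). Of 11 donor genes 2 rose and 2 fell, among which *Papss1* fell (-0.68, adjusted p = 0.00519) and *Papss2* rose (0.34, adjusted p = 0.0393). Of 6 linkage genes 1 rose and 3 fell, with *B4galt7* at -0.47 (adjusted p = 0.0195) and *Fam20b* at 0.41 (adjusted p = 0.0260). Of 12 lysosomal genes 0 rose and 4 fell, among them *Naglu* (-0.90, adjusted p = 0.00223) and *Glb1* (-0.72, adjusted p = 0.0181). Of 15 core protein genes 2 rose and 0 fell, the heparan sulfate proteoglycan gene *Agrn* by 0.85 (adjusted p = 0.00265) and the syndecan gene *Sdc4* by 0.50 (adjusted p = 0.0166).

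No member passed between *Slpi*-/- and B6 cells. In BMBs, 0 of 9 genes passed in limma, with 1 at an unadjusted p below the threshold, while 1 of 13571 genes was called (0.00737%). That gene of the 9 was *Ext2*, at 8.44 and 8.21 in *Slpi*-/- BMBs with and without stimulation, against 8.62 and 8.52 in B6 BMBs (-0.24, 95% interval -0.47 to -0.01, adjusted p = 0.720). The unstimulated B6 BMB array carried neutrophil markers, and their part in these differences was not tested. In BMEos, 0 of 9 passed and 0 had an unadjusted p below the threshold, beside 0.00737% of all genes called. The nearest was *Hs6st1*, at 6.99 and 7.14 in *Slpi*-/- BMEos with and without LPS, against 6.88 and 6.74 in B6 BMEos (0.25, -0.00465 to 0.51, unadjusted p = 0.0532, adjusted p = 0.879).

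Over the 5 cell and stimulus settings, 0 of 9 genes passed and 0 had an unadjusted p below the threshold, beside 0% of all genes called, and the methods' t-test also called 0. *Slpi* itself was thus not called in this fit, although its signals were lower in *Slpi*-/- BMBs and BMEos. The absence of calls is therefore weak evidence of no change. The difference over the 5 pairs was -0.04 for *Srgn* (95% interval -0.17 to 0.09), 0.05 for *Ndst2* (-0.09 to 0.19), -0.11 for *Chst11* (-0.25 to 0.04) and -0.05 for *Chst12* (-0.18 to 0.09). The genotype difference in BMEos minus that in BMBs passed for 0 of 9 genes, with 1 (*Ext2*, 0.35, adjusted p = 0.806) at an unadjusted p below the threshold, beside 0.00737% called over all genes. Among the 45 single pairs of arrays, the largest difference was 0.48, for *Ext1* in unstimulated BMBs, and the median size was 0.11.

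**Figure D5:**
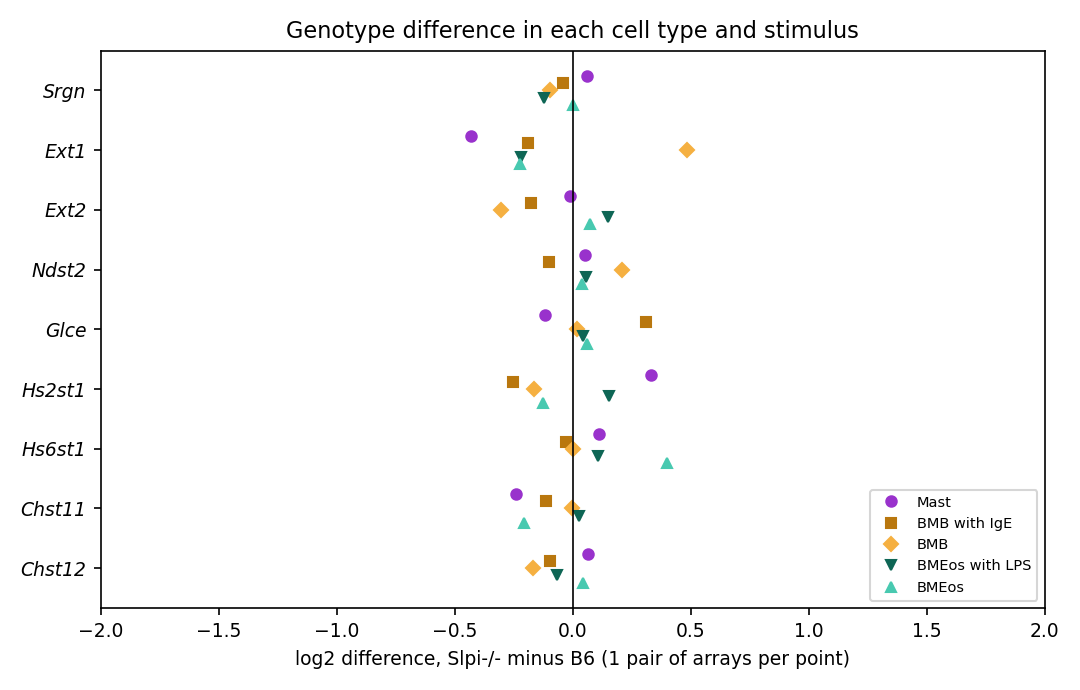
Log2 signal of the *Slpi*-/- array minus that of the B6 array (x axis) for the 9 genes (y axis) in each of the 5 settings, 1 pair of arrays per point and no error bar. All 45 points lie within 0.48 of 0.

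The genes whose profiles came closest to the most variable members were named by the root mean square distance over the 10 arrays, after each profile was centred on its mean. *Ndst2* spanned 3.85 log2 units, and its nearest were *Nxpe3* (0.24), *Tgfbr1* (0.27), *Slc30a2* (0.28), *Rgs12* (0.29) and *Klf9* (0.30). *Tgfbr1*, a TGF-beta receptor gene, had 11.59 and 11.59 in *Slpi*-/- and B6 mast cells and 8.85 and 8.97 in *Slpi*-/- and B6 BMEos. *Hs6st1* spanned 2.59 log2 units, and its nearest were *Arhgef12* (0.15), *Agpat3* (0.18), *Wls* (0.19), *Dhdh* (0.19) and *Zscan26* (0.21). These distances are descriptions over 10 arrays of 3 cell types, and arrays of a cell type are not independent conditions.

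Genes of granule contents such as proteases, together with genes that make histamine or load it into granules, were also compared as 1 list. Of 12 tested, 5 were higher and 4 lower in mast cells than in BMBs, 9 higher and 2 lower in mast cells than in BMEos, and 9 higher and 2 lower in BMBs than in BMEos. Over all genes the shares were 17.9% and 18.8%, 26.8% and 24.3%, and 21.2% and 18.6% in that order. With IgE and antigen 2 rose and 1 fell, beside 12.2% and 10.6%. The genes given here were chosen after their values were seen. The mast cell chymase gene *Cma1* had log2 signals of 12.19 and 11.99 in *Slpi*-/- and B6 mast cells, 5.79 and 5.61 in *Slpi*-/- and B6 BMBs, and values at background in BMEos. *Mcpt8*, a basophil protease gene, was at background in mast cells and BMEos and had 12.72 and 12.96 in *Slpi*-/- and B6 BMBs, and *Prg2*, the gene of eosinophil major basic protein, had 12.02 and 12.20 in *Slpi*-/- and B6 BMEos. With IgE and antigen, *Gzmb*, a granzyme gene, rose to 10.84 and 10.30 in *Slpi*-/- and B6 BMBs, against 8.70 and 8.86 without stimulation (1.79, limma adjusted p = 0.00169), and *Hdc*, the histamine synthesis gene, rose by 0.69 (adjusted p = 0.00763). In the same arrays *Slc18a2*, which encodes a transporter that loads histamine into granules, fell by 0.88 (adjusted p = 0.0301).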

How the data were processed

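Per the labels and the study's methods, the authors summarized the probe signals of each array by robust multi-array averaging (RMA, affy); the deposited unit is log2 signal, and nothing further was done to normalize it. Of 34760 probe sets, 21640 carry 1 gene symbol in the platform annotation, 1321 carry several and 11799 none, and 21553 matched RefSeq (GRCm38.p6). Where a gene had several, the probe set with the highest mean was used. The number of arrays limits the precision.

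Tests used limma 3.58.1 in R 4.3.3 (lmFit, eBayes, Benjamini-Hochberg adjustment over all genes above background on at least 1 array, threshold 0.05). Cell types were compared over the 6 unstimulated arrays with a genotype term (2 residual degrees of freedom), stimuli and genotype over 10 arrays (2), and genotype over 5 pairs (4). To each gene's own spread limma added 4.48 to 4.75 prior degrees of freedom, drawn from the spread of all genes tested. A gene at background on all arrays of a group was given as a bound. An adjusted p beside a bound is limma's for the difference of the measured signals, and the bound itself was not tested. The step was also run on simulated data whose spreads were drawn from limma's own prior. Such a run cannot show how well the calls hold with 1 array per condition. Alternatives were median centring, quantile normalization, averaging over the probe sets of a gene, no filter, the 99th percentile as background, a variance trend, the methods' t-test, other fits, and each array left out.

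Named were all members, up to 4 genes per list and comparison that passed with the largest differences, up to 2 that did not, and the 5 nearest profiles; genes that spell out a count of 5 or fewer, and those named with the granule proteins or to follow a gene across comparisons, were chosen after their values were seen. The members and lists were chosen with earlier results of these data known. Figures were drawn with matplotlib 3.10.9 in Python 3.11.15.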

Additional observations from a re-analysis of the deposited data

How the results depend on the processing

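The 26 values that passed were recomputed under 327 alternatives in all. Direction held in each of them, and the call held in 266 and was lost in 61, of which 26 were the methods' t-test and 28 left out 1 array. The methods' t-test on 2 pairs has 1 degree of freedom and called 0 of the 9 genes in each comparison of cell types or stimuli, where limma called 5 for mast cells minus BMBs, 7 for mast cells minus BMEos, 6 for BMBs minus BMEos, 3 for IgE and 5 for LPS. With all named genes tested, LPS called 2 (*Ndst2* and *Chst12*). With 1 array left out, the lone array of a condition is assumed to vary like the others. For IgE and LPS, leaving out either array of a genotype gives the same fit. For genotype, leaving out either array of a setting does so, and the 327 and 717 alternatives therefore hold repeats. Of 55 values that did not pass, 7 of 717 alternatives passed, all *Ext1* in mast cells minus BMBs. The genotype comparisons called 0 under every alternative run. The labels give no replicate numbers, and the arrays were paired by genotype or by setting in the fits. Signals near background limit *Ext1* and *Glce*, which lay below the stricter background (the 99th percentile) on all 10 arrays.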
